A study of Mus musculus with 66 samples.

Results

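The nuclear genes for the 5 complexes of oxidative phosphorylation were described as mouse embryonic stem cells left mitosis, with and without 2 nuclear receptors. They were chosen by name: every gene of the authors' expression table whose symbol begins with Nduf, Cox4 to Cox8, Uqcr or Atp5, or is Sdha, Sdhb, Sdhc or Sdhd. The pattern found 88 of the 13957 genes in the table. Of these, 37 were grouped as complex I, 7 as assembly factors of complex I (Ndufaf), 4 as complex II, 8 as complex III, 18 as complex IV (Ndufa4 included) and 14 as complex V. The name rule itself uses no expression value.

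The RNA came from a derivative of E14Tg2a, an embryonic stem cell line of 129/Ola origin, engineered so that auxin causes the degradation of Esrrb and Nr5a2 together. Each of the 2 arms, without and with auxin, was sampled at 9 stages: cycling (asynchronous) cells, mitotic arrest, every 10 minutes between 20 and 60 minutes after release, and at 90 and 120 minutes. Each of these 18 groups held 3 libraries, 54 in all, and another 12 libraries of wild-type E14Tg2a cells (input and Nr5a2 chromatin, in interphase and in mitosis) lie behind a list of 35266 Nr5a2 binding peaks. The arm was read from the sample titles, since the treatment entry reads ctl throughout. Cells that lack the degradable receptors but received auxin were not analysed here, so an effect of auxin itself and one of receptor loss cannot be told apart, nor can the loss of Esrrb from that of Nr5a2.

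In oxidative phosphorylation, complexes I and II pass electrons from NADH and succinate to ubiquinone, complex III passes them to cytochrome c, and complex IV to oxygen. Complexes I, III and IV pump protons across the inner mitochondrial membrane, and complex V, the ATP synthase, uses the returning protons to make ATP. Embryonic stem cells of the naive state are known to respire as well as to use glycolysis. Esrrb belongs to the estrogen-related receptors, a family known in other tissues for acting on respiratory genes, and both Esrrb and Nr5a2 bind a monomeric site with the core AAGGTCA. The subunits encoded by mitochondrial DNA were not analysed here.

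The values are TPM, a unit that corrects read abundance for the length of the gene and the size of the library, given as the authors' mean of each group. The listed genes summed to 17189 TPM in mitosis, 49059 at 60 minutes and 24769 in asynchronous cells without auxin, far below the full total of the unit, so a level is not a share of the listed RNA and a rise can be one of the whole table. A group mean carries no spread, so no difference below could be set against the variation between libraries and none has a test. Whether spliced or unspliced RNA was quantified is not stated. Folds are on the log2(TPM + 1) scale, which understates the change of low genes, and medians are over genes of at least 1 TPM in at least 1 group, which 81 of the 88 members and 8999 genes of the table were. Embryonic stem cell markers were present: 7 of 8 were in the table, with a summed level of 34.9 to 134 TPM over the 18 groups, and the authors called all 7 lower with auxin. Of 8 fibroblast markers 3 were in the table, with a sum of 3.37 to 15.2 TPM, nearly all of it Fn1. Those of trophoblast reached 1.54 TPM in sum and those of primitive endoderm 0.53 TPM.

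Binding of Nr5a2 set the members apart from most genes. A start site with its sequence was given in RefSeq (GRCm38.p6, the assembly that mm10 denotes) for 72 members and 11132 genes of the table, and the window searched ran from 250 bases before to 50 after the start. A listed Nr5a2 peak overlapped that window at 43 of 72 members (59.7%), against 12.4% of all genes. Among genes of at least 1 TPM it was 42 of 69 members (60.9%), against 14.4%. Among the genes whose span lay between the quartiles of the members' spans, here called genes of like span, 15.2% had such a peak. Within 1 kb of the start the counts were 52 of 72 members and 22.1% of all genes. For comparison, 15 of 66 genes of the mitochondrial ribosome, 5 of 57 genes of the cytoplasmic ribosome and 4 of 31 proteasome genes had a peak over the window. The citric acid cycle and pyruvate dehydrogenase list, without its Sdh genes, had 6 of 14.

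The AAGGTCA core lay in the window of 8 members, 11.1% of 72 against 4.11% of all genes and 3.66% of genes of at least 1 TPM, when both strands were searched. All 8 also had a listed peak over the window, and among all genes 37.6% of those with the core and 11.3% of those without it had one. The stretches below carry that core, in capitals as AAGGTCA or, where it lies on the other strand, as TGACCTT, and they are shown because they are where the listed binding and the receptors' known site meet in these genes. Each is read 5′ to 3′ on the strand of the gene, from RefSeq, on GRCm38.p6. The core was inside the peak in 7 of the 8, the exception being Ndufs5, whose peak ended short of it.
Atp5g3 (chr2:73911360-73911389, minus strand): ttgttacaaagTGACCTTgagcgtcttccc
Atp5e (chr2:174464059-174464088, minus strand): ctactcaggccTGACCTTcctgctgccggg
Atp5k (chr5:108434358-108434387, minus strand): cttccggcgcgAAGGTCAcggacaaaatgg
Atp5l (chr9:44920737-44920766, minus strand): gaggggcagccTGACCTTggaaatggggaa
Sdhd (chr9:50603800-50603824, minus strand): gggttgtagagTGACCTTgagccct
Ndufb2 (chr6:39592373-39592402, plus strand): ggagcagcagtAAGGTCAgccaagagcacc
Ndufb4 (chr16:37654405-37654434, minus strand): tcctgagcctgAAGGTCAgactcgagaggg
Ndufs5 (chr4:123718396-123718425, minus strand): tttctcgagtgTGACCTTgctcaagtagca

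Of these 8, 4 encode parts of the ATP synthase: Atp5g3 a subunit of the proton-carrying c-ring, Atp5e the epsilon subunit, and Atp5k and Atp5l small membrane subunits. Sdhd anchors complex II in the membrane, and Ndufb2, Ndufb4 and Ndufs5 are accessory subunits of complex I. The longer form TCAAGGTCA was in 2 members, Atp5g3 and Sdhd, and in 0.368% of all genes. In Atp5g3 the core began 52 bases before the start, inside a peak at chr2:73911233-73911853 with the class code eB. The 250 bases before the Atp5g3 start, chr2:73911327-73911576 on the minus strand, are given because this member had the peak and the longer motif and was also called lower with auxin by the authors.
Atp5g3 upstream: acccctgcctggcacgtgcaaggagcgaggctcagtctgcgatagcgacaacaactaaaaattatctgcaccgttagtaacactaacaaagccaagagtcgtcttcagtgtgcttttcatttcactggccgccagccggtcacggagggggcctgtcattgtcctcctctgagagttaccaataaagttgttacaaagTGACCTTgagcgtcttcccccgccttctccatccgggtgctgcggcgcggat

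The other motifs searched, also on both strands and in the same window, were those of general regulators of respiratory genes. The NRF1 sequence GCGCATGCG was in 10 members against 3.82% of all genes and 4.83% of genes of at least 1 TPM, among them Atp5k, Cox6a1, Ndufa11 and Uqcrc1. The ETS sequence CCGGAAG was in 17 members, 23.6% against 18.1% of all genes and 23.4% of genes of at least 1 TPM, and the YY1 sequence AAGATGGCG in 6 (3.17% and 4.56%). A match is a string of letters in a short window and no more. The window also missed much of what the peaks cover, as the next values show.

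The peaks at the members lay mainly just inside the gene. The centre of the nearest peak was 0 to 1000 bases downstream of the start in 42 of 72 members, at a median of 312 bases, against 7.60% of all genes. In 20 members it fell between 250 and 500 bases downstream. The nearest centre lay upstream, between 1000 bases and the start, in 9 of 72 members and 11.4% of all genes. Each gene was placed once, at its nearest peak, so a gene counted downstream could not also count upstream. The median distance to the nearest peak centre on either side was 414 bases for members and 10038 for all genes. Another gene on the opposite strand began within 1000 bp upstream, or up to 200 bp inside, of 24 of 72 members, against 20.2% of all genes, so a peak there can belong to either gene, as at Ndufa11 and Vmac or Sdhd and Timm8b. A peak was present at 16 of those 24 and at 27 of the 48 others.

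**Figure D1:**
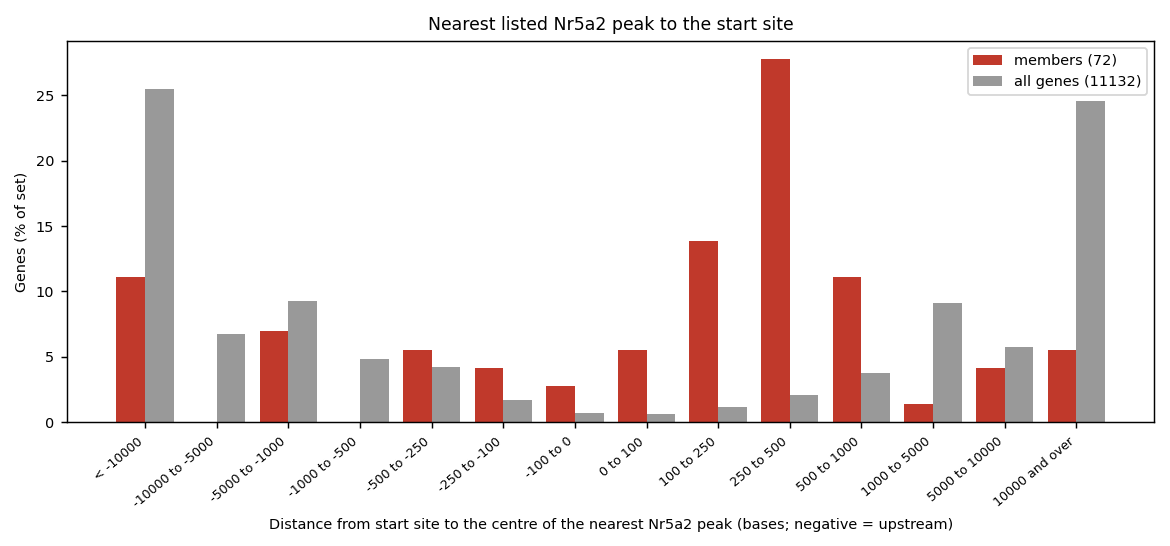
Distance in bases from the start site to the centre of the nearest listed Nr5a2 peak, in bins of unequal width, as percent of the 72 members (red) and of the 11132 genes with a start site (grey). The highest red bar is the bin from 250 to 500 bases downstream, with 27.8% of members; the highest grey bars are the outermost bins, beyond 10000 bases.

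By complex, a promoter peak was found at 11 of 13 genes of complex V, 8 of 13 of complex IV, 3 of 5 of complex III, 3 of 3 of complex II, 16 of 32 of complex I and 2 of 6 assembly factors. Named subunits with one included Atp5b, the catalytic beta subunit, Uqcrc1, a core protein of complex III, Cox5a and Cox5b of complex IV, and Sdha, the flavoprotein of complex II. The authors' list gives each peak 1 of 4 class codes, whose meaning is not given. At the members' promoters the code was eB in 22, dB in 13, L in 6 and nB in 2. Over all genes with a promoter peak, eB made up 39.3%, dB 18.4%, L 39.2% and nB 4.28%. The members' shares were 51.2%, 30.2%, 14.0% and 4.65%. By the planned definition, a peak in the gene or within 10 kb, 77 of 88 members (87.5%) had one. Of all genes 70.5% did, a far smaller gap.

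The abundance of the members spanned a wide range. Over the 18 groups the highest mean in complex IV was that of Cox4i1, at 16.2 TPM, and in complex V that of Atp5b, at 11.9 TPM. Ndufa7 led complex I at 8.68 TPM, Uqcrh, the hinge protein, complex III at 6.06, Sdhd complex II at 3.43, and Ndufaf6 the assembly factors at 2.29. At the low end stood Cox7a1 (0.37), Ndufa1 (0.55), Ndufaf3 (0.57), Sdhc (1.42), Uqcrb (1.83) and Atp5k (2.28).

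Most isoform genes known from other tissues were near 0, and Cox6b2 was not. Cox4i2, the lung form, peaked at 0.15 TPM. Cox6a2 and Cox8b, forms of heart and skeletal muscle, peaked at 0.12 and 0.32, and Cox8c and Cox7b2, known from testis, at 0.10 and 0.25. Cox6b2, also known as the testis form, averaged 14.1 TPM, above the 3.03 TPM of Cox6b1, the general form. Protein was not analysed here, and whether spliced RNA was counted is not stated. Which form complex IV holds in these cells was therefore not tested. The 3 genes for the c-ring subunit, which yield the same mature protein, averaged 3.85 (Atp5g1), 8.58 (Atp5g2) and 7.41 TPM (Atp5g3). Cox7a2 averaged 2.70 TPM, Cox7a2l, a factor of supercomplex assembly, 4.0, Cox6a1 9.99 and Cox8a 9.72. Atp5o, the stalk subunit that every ATP synthase contains, was listed at no more than 0.40 TPM, and Ndufa4l2, known from hypoxia, at no more than 0.89. These 7 genes below 1 TPM in all groups (Atp5o, Cox4i2, Cox6a2, Cox7b2, Cox8b, Cox8c and Ndufa4l2) are left out of the medians below.

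After release, the summed level of the 88 members without auxin was 174 TPM in mitosis, 192 at 20 minutes, 188 at 30, 267 at 40, 446 at 50, 537 at 60, 470 at 90 and 414 at 120 minutes, and 216 in asynchronous cells. With auxin the same sums were 167, 176, 183, 266, 437, 507, 476, 410 and 200 TPM. Both arms were thus highest at 60 minutes and still above asynchronous cells at 120. The members held 1.01% of the table's total in mitosis, 1.17% at 40 minutes, 1.09% at 60 and 0.87% in asynchronous cells, so most of the course was shared with the rest of the table.

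No member was 2-fold above mitosis without auxin at 20 minutes (0.0111% of all genes) or at 30 minutes (0.1%). At 40 minutes 11 of 81 were (13.6%, against 5.73% of all genes), at 50 minutes 36 (30.6% of all genes), at 60 minutes 53 (50.8%), at 90 minutes 41 (44.9%) and at 120 minutes 27 (33.1%). With auxin the counts from 40 minutes on were 11 (6.01%), 35 (30.5%), 48 (46.8%), 48 (46.7%) and 33 (34.9%). The members' median log2 ratio to mitosis at 60 minutes was 1.13 without auxin, against 1.01 over all genes and 1.17 over genes of like span. With auxin it was 1.14, against 0.95 and 1.12. By complex, the median without auxin was 1.11 for complex I, 1.01 for its assembly factors, 1.22 for complex II, 1.27 for complex III, 1.12 for complex IV and 1.21 for complex V. Where each group was centred on its median over the 8999 genes, 5 of 81 members were still 2-fold above mitosis at 60 minutes, against 4.84% of all genes, and the members' median was 0.02, against -0.09.

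**Figure D2:**
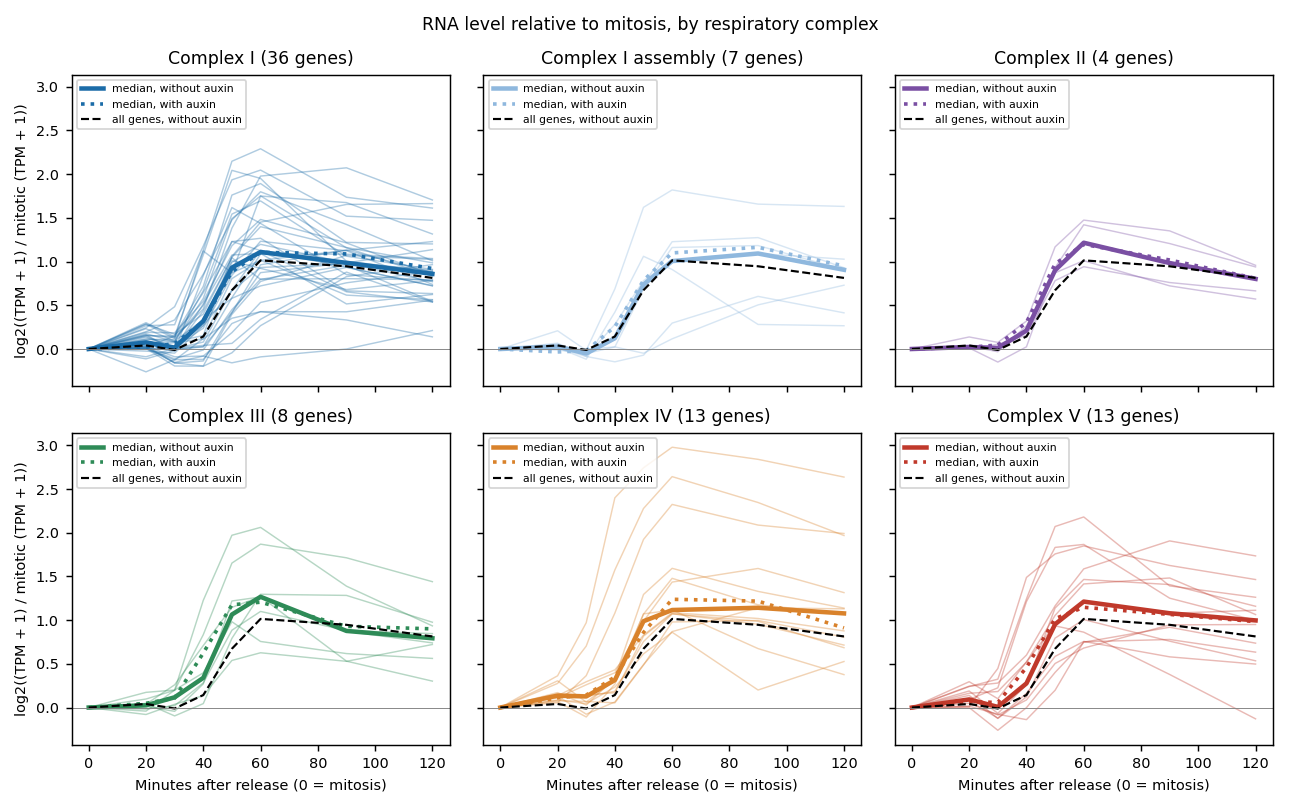
log2 ratio of TPM + 1 to the mitotic value against minutes after release, with a panel per complex: thin lines are single genes without auxin, thick lines the median of the complex without auxin, dotted lines its median with auxin, and the dashed line the median of all 8999 genes without auxin. The medians of all 6 groups are near 0 until 30 minutes and between 1.01 and 1.27 at 60 minutes, and the single highest line is in complex IV (Cox6b2, 2.98).

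The highest ratio at 60 minutes was that of Cox6b2 (chr7:4751792-4753094), the testis form of a subunit at the dimer contact of complex IV. Without auxin it stood at 2.44 TPM in mitosis, 3.43 at 20 minutes, 5.75 at 30, 17.2 at 40, 22.0 at 50, 26.1 at 60, 23.6 at 90 and 20.4 at 120 minutes, and at 7.10 TPM in asynchronous cells. With auxin the values were 2.60, 4.32, 4.33, 12.5, 21.6, 26.8, 22.9, 21.8 and 8.70 TPM. Its log2 ratio was thus already 2.40 at 40 minutes and 2.98 at 60 minutes without auxin, and 2.95 at 60 minutes with it. Cox6a1 and Cox5b, the next in complex IV, reached 2.64 and 2.32.

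In complex I the highest ratio was 2.29, for Ndufb6, an accessory subunit of the membrane arm. Its level without auxin was 0.82 TPM in mitosis, 2.98 at 40 minutes and 7.90 at 60 minutes. Atp5a1, the alpha subunit of the ATP synthase, led complex V at 2.18, with 3.0 TPM in mitosis, 8.47 at 40 and 17.1 at 60 minutes. Atp5a1 overlaps Haus1 in RefSeq, and whether the counting used the strand is not stated, so its reads and those of Haus1 may be mixed. Uqcrh led complex III at 2.06, Ndufaf4 the assembly factors at 1.82 and Sdhd complex II at 1.47. Processed copies of some of these genes exist in the genome, and how reads shared with such copies were counted is not stated.

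At the other end, Ndufc2 of complex I (chr7:97400003-97407800) ran nearly flat without auxin, between 0.53 and 0.98 TPM over the 9 stages, with a ratio of -0.09 at 60 minutes. Ndufaf1, an assembly factor, stood at 1.17 TPM in mitosis and 1.35 at 60 minutes, a ratio of 0.12, and was highest at 120 minutes, with 2.60 TPM. Ndufs4, an accessory subunit whose loss causes Leigh-like disease, stood at 1.34 TPM in mitosis, 1.05 at 40, 1.82 at 60 and 3.58 at 120 minutes. The lowest ratios of the other complexes were 0.63 for Uqcr10, 0.68 for Atp5g2, 0.86 for Cox7a1 and 0.94 for Sdhb. Within complex I the ratios thus ran from -0.09 to 2.29, and within complex II only from 0.94 to 1.47.

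The subunits below, most but not all of them catalytic, core or cofactor-bearing, ranged widely in their ratios. The quartiles of all 81 members were 0.87 and 1.48. In complex I the 60-minute ratio was 0.96 for Ndufs1, 0.43 for Ndufs7, 1.80 for Ndufs8, 1.45 for Ndufv1 and 0.53 for Ndufv2. In complex III it was 1.87 for Uqcrc1, 1.30 for Uqcrc2 and 1.27 for the iron-sulfur protein Uqcrfs1. Cox4i1 and Cox5a stood at 1.09 and 1.12, Atp5b at 0.76, and Sdha and Sdhc at 1.42 and 1.01. Ndufv2 overlaps Ankrd12, with the same limit as for Atp5a1.

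**Figure D3:**
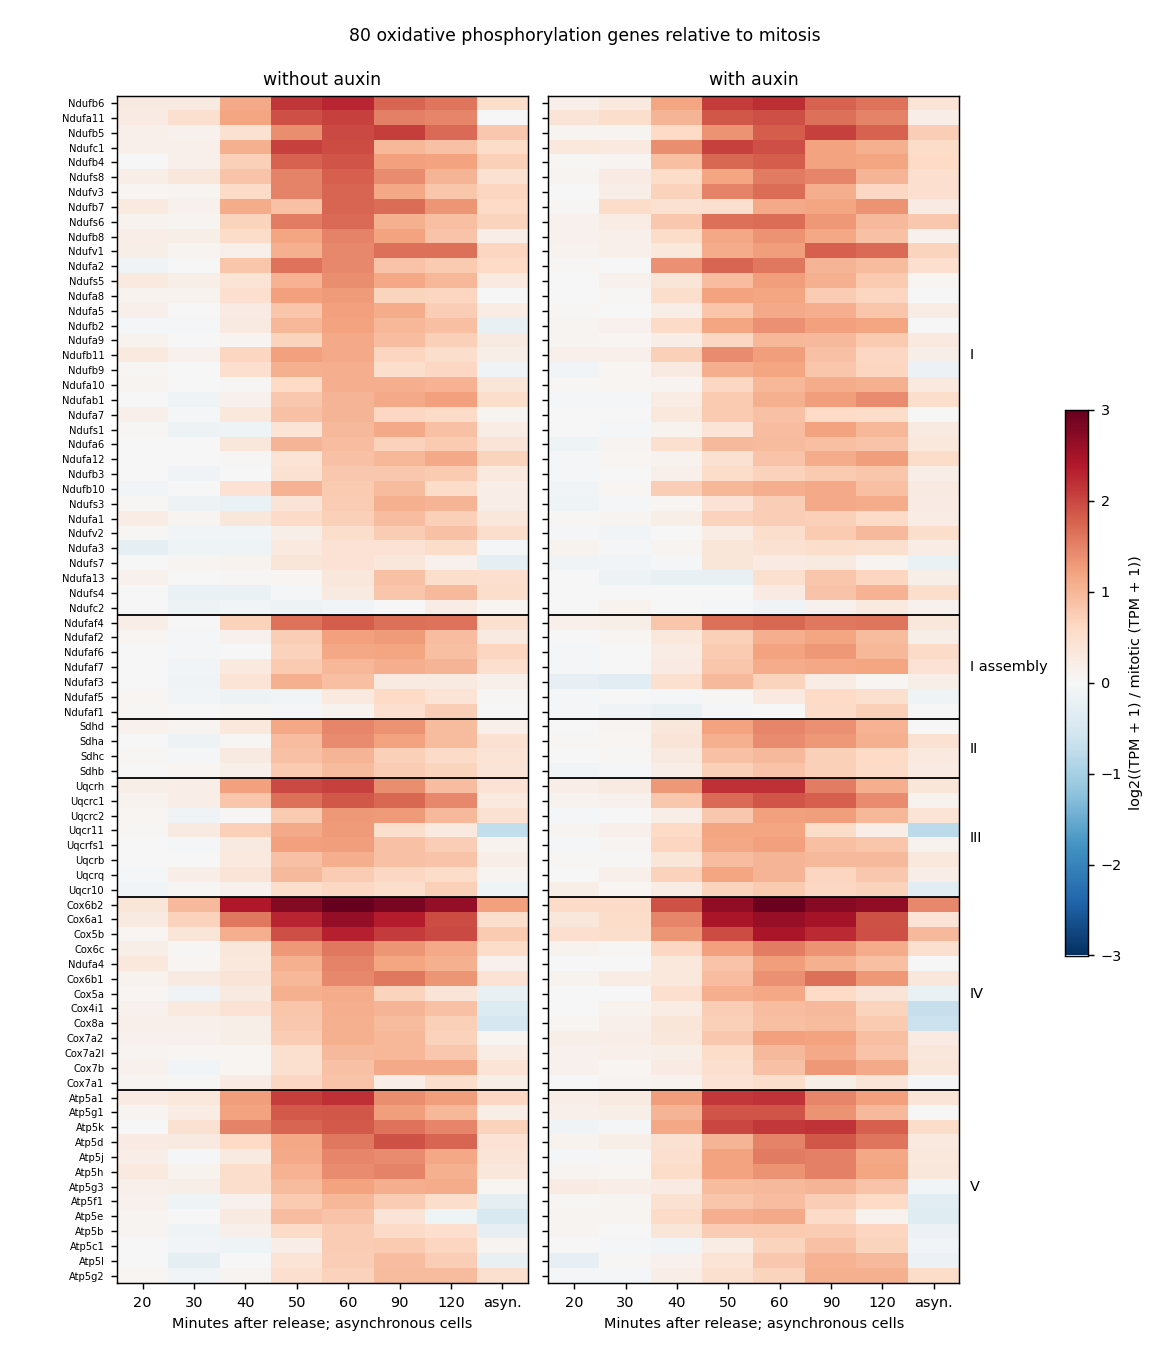
log2 ratio of TPM + 1 to the mitotic value of the same arm (colour, from -3 in blue to 3 in red) for 80 of the 81 members in rows, by complex and then by their 60-minute ratio, with the 7 release times and asynchronous cells in columns, without auxin on the left and with auxin on the right. Cox6b2, Cox6a1 and Cox5b of complex IV are the darkest rows in both arms, and Ndufc2 the palest of complex I.

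The members that were 2-fold up at 40 minutes without auxin were Atp5a1, Atp5g1, Atp5k, Cox5b, Cox6a1, Cox6b2, Ndufa11, Ndufb6, Ndufb7, Ndufc1 and Uqcrh. Of these 11, 10 were so in both arms, Ndufb7 being the exception. Short genes led: the median log2 ratio at 40 minutes was 0.44 over the 27 shortest members (1154 to 5477 bp) and 0.12 over the 27 longest (10095 to 106064 bp). Spearman's rho between span and this ratio was -0.55 over 81 members and -0.60 over 8994 genes with a position, both across genes of the same libraries. The members' median span was 7495 bp, against 21822 bp over all genes. At 40 minutes their median ratio was 0.28, above the 0.14 of all genes and below the 0.37 of genes of like span.

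**Figure D4:**
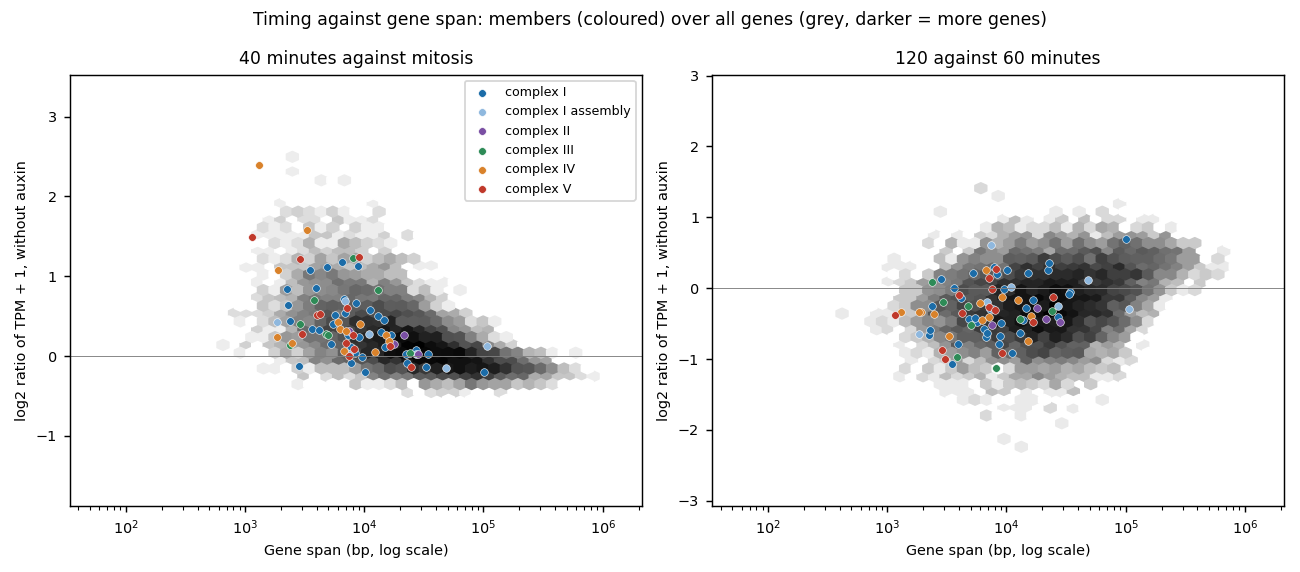
Gene span in bp (log axis) against the log2 ratio without auxin of 40 minutes to mitosis (left) and of 120 to 60 minutes (right), with members as coloured points by complex over all genes as grey bins, darker where more genes lie. On the left the short genes Cox6b2 and Atp5k are near the top of the members, and the long gene Ndufs4 (100300 bp) is their lowest.

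Most members were lower at 120 than at 60 minutes. Without auxin 64 of 81 were, against 63.3% of all genes and 70.7% of genes of like span. The median log2 difference was -0.32, against -0.17 over all genes and -0.26 over genes of like span. With auxin 61 of 81 were lower, against 57.4% of all genes and 67.2% of genes of like span. The median was then -0.23, against -0.09 over all genes and -0.21 over genes of like span. The steepest was Uqcrh, from 12.6 to 5.23 TPM (-1.13), then Ndufc1, from 5.89 to 2.30 TPM (-1.06), and Atp5e, from 7.17 to 3.11 TPM (-0.99). Ndufs4 (0.70) and Ndufaf1 (0.61) moved most the other way. All 4 genes of complex II were lower at 120 minutes, with a median of -0.46, and so were 12 of 13 of complex IV and 7 of 8 of complex III.

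The stage of the highest level without auxin was 50 minutes for 8 members (6.5% of all genes), 60 minutes for 45 (45%), 90 minutes for 18 (22.7%) and 120 minutes for 10 (20%). With auxin the counts were 10, 38, 23 and 10, against 7.08%, 36.4%, 29.7% and 22.4% of all genes, and 61 of 81 members had the same stage in both arms, against 78.4% of all genes. Those highest at 120 minutes in both arms were Atp5g2, Ndufa12, Ndufab1, Ndufaf1, Ndufc2, Ndufs4 and Ndufv2. At 120 minutes all 81 members were above asynchronous cells without auxin, by a median of 0.63 (89.8% of all genes were, by a median of 0.49). With each group centred on its median, 49 of 81 were, against 47.5% of all genes.

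Between the arms, the authors' deposited table calls 12 of 88 members lower with auxin, 13.6% against 7.26% of all genes, and 4 higher, against 6.74%. Among genes of at least 1 TPM the gap was narrower, with 12 of 81 members called lower against 9.46%. How these calls were made, and from which stages, is not stated. Those called lower were Atp5d, Atp5g3, Atp5j and Atp5k of complex V, Cox4i1 and Cox5a of complex IV, Sdhb and Sdhc of complex II, Uqcrq of complex III, Ndufb10 and Ndufb11 of complex I, and the assembly factor Ndufaf5. Those called higher were Ndufb6 and Ndufs5 of complex I, Ndufaf3, and Cox7b2, which did not exceed 0.25 TPM. Complex V thus had 4 of 14 called lower and complex I 2 of 37. Of the 12, 6 overlap another gene in RefSeq, with the limit given for Atp5a1: Atp5d (Cbarp), Atp5j (Gabpa, itself called lower), Ndufb11 (Rbm10), Uqcrq (Gdf9), and Sdhc and Ndufaf5 (predicted genes).

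The differences were small. In asynchronous cells 64 of 81 members were lower with auxin, against 71% of all genes, with a median of -0.08 against -0.04. Among genes of like span 63.4% were lower, with a median of -0.03. A difference of at least 1.1-fold downwards was found in 24 members (29.6%), against 14.1% of all genes, and upwards in 3, against 3.41%. By complex, the asynchronous median was -0.04 for complex I (26 of 36 lower), -0.10 for its assembly factors (5 of 7), -0.15 for complex II (4 of 4), -0.14 for complex III (7 of 8), -0.13 for complex IV (10 of 13) and -0.15 for complex V (12 of 13). Complexes II to V together had 33 of 38 lower, with a median of -0.14, a grouping made after the values were seen. With each group centred on its median, that median was -0.09 with 27 of 38 lower, while that of complex I turned to 0.01 with 16 of 36 lower. Over all genes it was then 0.01, with 45.2% lower.

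In mitosis 55 of 81 members were lower with auxin, against 46.2% of all genes, with a median of -0.03 against 0.01. Among genes of like span 52.2% were lower, with a median of -0.004. Over the 7 release times averaged, 48 of 81 were lower (39.2% of all genes), and the median was -0.01 against 0.02. Among genes of like span 52.0% were lower, with a median of -0.002. Without 60 minutes the members' median was 0.0015, against 0.027 over all genes. At 60 minutes 65 of 81 members were lower with auxin, and so were 80.5% of all genes. The count of members lower ranged from 30 of 81 at 40 minutes (28.3% of all genes) to 66 at 20 minutes (69%), with the share of the table moving the same way. Lower at all 7 times were 5 members, Atp5d, Cox4i1, Cox5a, Cox7a2l and Uqcr11, against 5.33% of all genes, and higher at all 7 were Atp5a1 and Ndufb6, against 3.88%. Both shares are near those of the table.

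**Figure D5:**
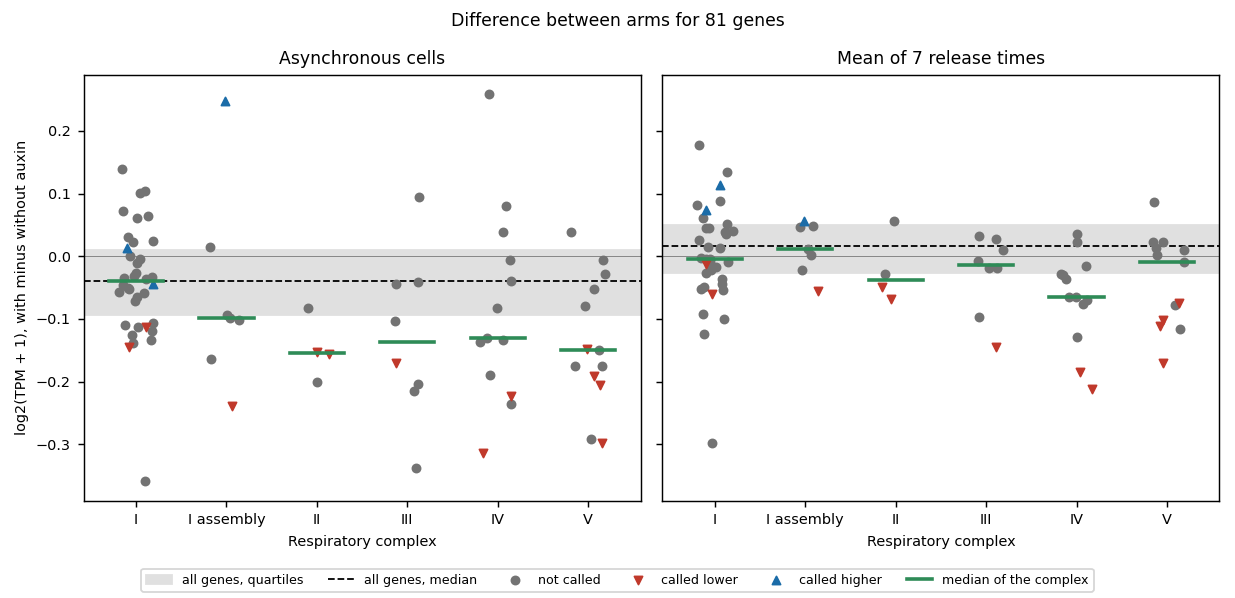
Difference in log2(TPM + 1), with minus without auxin, for the 81 members by complex, in asynchronous cells (left) and as the mean of 7 release times (right): points are genes, by the authors' call, green bars the median of the complex, the dashed line and grey band the median and quartiles of all 8999 genes. In asynchronous cells the medians of complexes II to V lie between -0.13 and -0.15, below the band, and that of complex I at -0.04 lies on the line of all genes.

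Cox5a, which lies on the matrix side of complex IV (chr9:57517328-57532427), was lower with auxin at every stage. Without auxin it stood at 3.03 TPM in asynchronous cells, 3.72 in mitosis, then 3.94, 3.38, 4.68, 8.91, 9.22, 6.53 and 5.13 TPM from 20 to 120 minutes. With auxin the values were 2.45, 2.97, 3.02, 2.90, 4.61, 7.48, 7.80, 5.02 and 4.19 TPM. The difference was thus present before release (-0.25 in mitosis) and ranged from -0.02 at 40 minutes to -0.32 at 90 minutes. Its mean over the 7 times was -0.21.

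Cox4i1 (chr8:120668225-120674209) was also lower at every stage. It went from 8.39 to 6.55 TPM with auxin in asynchronous cells, from 11.4 to 11.2 in mitosis, from 25.4 to 22.0 at 60 minutes and from 21.9 to 18.2 at 120 minutes. Its difference was -0.31 in asynchronous cells, -0.03 in mitosis and -0.18 over the release times. Atp5g3, the c-ring gene with the promoter shown above, differed by -0.19 in asynchronous cells and -0.17 after release. Its values were 12.0 against 9.51 TPM with auxin at 60 minutes and 11.2 against 8.72 at 120 minutes, but 5.31 against 5.35 at 20 minutes.

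The lowest difference of any member was not among the authors' calls. Ndufb7, a subunit of the membrane arm of complex I (chr8:83566758-83571623), stood at 0.80 against 0.40 TPM with auxin in asynchronous cells (-0.36) and at 3.03 against 1.58 TPM at 60 minutes (-0.64). At 30 minutes the order was the other way, 0.30 against 0.73 TPM, and at 120 minutes the values were 1.98 and 2.02. Its mean over the release times was -0.30. The values of its single libraries were not analysed here.

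Other members with large differences in asynchronous cells were Uqcr10, at 3.73 against 2.74 TPM with auxin (-0.34), and Atp5k, at 1.31 against 0.88 (-0.30). Uqcr10 did not differ to that extent after release (-0.01). Atp5k, whose promoter stretch is shown above, was lower with auxin at 30 and 40 minutes (-0.64 and -0.50) and higher at 90 minutes (0.38). Cox6b2 was higher in asynchronous cells (0.26) and Ndufaf3 likewise, at 0.28 against 0.53 TPM (0.25). Ndufa13, a complex I subunit that overlaps Tssk6, had the highest difference after release, 0.18, with 3.40 against 4.82 TPM at 60 minutes.

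The remaining members that the authors called are given here. In complex II the asynchronous difference was -0.16 for Sdhb, the iron-sulfur subunit, and -0.15 for Sdhc, a membrane anchor, while the uncalled Sdhd and Sdha stood at -0.20 and -0.08. Atp5d and Atp5j, the delta and coupling-factor subunits, differed by -0.15 and -0.20, Uqcrq by -0.17 and Ndufaf5 by -0.24. Ndufb10 and Ndufb11 differed by -0.11 and -0.14 at levels of 1.31 and 0.44 TPM without auxin. All these values are of asynchronous cells. After release each of those called lower differed less: Sdhb by -0.07, Sdhc -0.05, Atp5d -0.11, Atp5j -0.07, Uqcrq -0.14, Ndufaf5 -0.06, Ndufb10 -0.01 and Ndufb11 -0.06. Of those called higher, Ndufb6 differed by 0.11 and Ndufs5 by 0.07 after release, but by 0.01 and -0.04 in asynchronous cells.

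Set beside the peaks, 8 of the 43 members with a promoter peak were called lower (18.6%), and 1 of the 29 without (Ndufb11). Over all genes the shares were 16.0% with a promoter peak and 5.83% without, so the members' share with a peak was near that of all genes with a peak. The 3 other members called lower had no start site in the sequences used. Among genes of at least 1 TPM, the asynchronous median was -0.11 over members with a promoter peak and -0.03 over those without. Over all such genes it was -0.06 and -0.04. By complex, over members with a start site and with those under 1 TPM included, it was -0.03 both with and without a peak in complex I. In complex IV it was -0.13 over 8 genes with and 0.08 over 5 without, and in complex V -0.15 over 11 and -0.13 over 2. The peaks came from wild-type cells and the RNA from the degradable line, and the part of binding in these differences was not tested.

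Among related genes, 5 of the 20 in the table from the citric acid cycle and pyruvate dehydrogenase list were called lower, against 7.26% of all genes. Of the 2 other respiratory chain genes, Cyc1 and Cycs, Cyc1 was called lower. It differed by -0.13 after release and -0.01 in asynchronous cells. Of 42 further assembly factors 37 were in the table. Sco2, a copper chaperone of complex IV, was called lower (-0.14 after release, 0.04 in asynchronous cells). Cox18 and Tmem126b were called higher (0.20 and 0.11 after release, 0.06 and 0.23 in asynchronous cells). Of 14 regulators of mitochondrial genes 12 were in the table, with Gabpa called lower and Ppargc1b higher. Gabpa differed by -0.24 in asynchronous cells and -0.05 after release, and Ppargc1b, at 0.42 TPM, by 0.04 and 0.06. Those 5 of the cycle list include the members Sdhb and Sdhc. Besides these, Idh3a, Idh3g and Ogdh were called lower, with asynchronous differences of -0.18, -0.21 and -0.27. After release they differed by -0.13, -0.14 and -0.10. Dld was called higher, with 0.09 after release and -0.005 in asynchronous cells. Without auxin, the 60-minute ratio had a median of 0.96 over these assembly factors and 1.04 over the cycle genes, against the 1.13 of the members.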

How the data were processed

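Expression was deposited as TPM, the authors' mean of 3 libraries in each of 18 groups, and the authors' call (lower, higher or not responsive) stands in the same table. The submitters' processing notes name the mm10 build and, with no version, STAR, RSEM, DESeq2, Bowtie2 and MACS2. TPM keeps no depth, so depth per library is unknown. Group means allow no test, and the planned limma fits were not run. From them log2(TPM + 1) was computed, genes under 1 TPM in every group were left out of medians, and arms and stages were compared as differences. Nothing says that the 3 libraries came from separate cultures. Positions and promoter sequences are from RefSeq, GRCm38.p6, matched by symbol or synonym, and 16 members had no promoter sequence there. Peaks were counted where they overlapped a window by at least 1 base. Named members are the highest and lowest of each complex in level and in 60-minute ratio, the core subunits and isoform sets, all members with a call, and the 3 most extreme differences between arms in each direction. The name rule uses no measured value, but the group of genes and the lists were chosen with earlier results of these data known. The functions were tested on simulated data. Tables were handled with pandas and numpy. The values of 1 member are not reported here by name, though it stays in the counts and medians.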

Additional observations from a re-analysis of the deposited data

How the results depend on the processing

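Of 101 alternative values of 17 results, 76 kept their direction and stayed within 1.5 times the value as reported. Some of these could not have changed. A smaller pseudocount cannot alter how many members are lower or higher between 2 groups. A background of genes of like span leaves the members' own values at 60 minutes and from 60 to 120 minutes as they were. With each group centred on its median, the members 2-fold above mitosis at 60 minutes were 5 without and 7 with auxin, with medians of 0.023 and 0.11. The 120 against 60 minute medians were then -0.12 without and -0.12 with auxin. At 120 minutes without auxin 49 members were above asynchronous cells, against 47.5% of all genes, with a median of 0.11. The medians between arms were -0.018 after release and -0.031 in asynchronous cells. With quantile normalization 4 members without and 5 with auxin were 2-fold up at 60 minutes, against 4.69% and 4.79% of all genes. The members' medians were 0.075 and 0.079, and those of 120 against 60 minutes -0.077 and -0.11. At 120 minutes without auxin 48 members were above asynchronous cells, against 48.7% of all genes, with a median of 0.082. The medians between arms were -0.019 after release and -0.023 in asynchronous cells. The median between arms after release was -0.0027 without 20 minutes, -0.023 without 120 minutes and 0.0015 without 60 minutes, which turned its sign. Over all genes it was then 0.023, 0.012 and 0.027. In asynchronous cells it was -0.040 for complex I alone and -0.14 for complexes II to V alone, both chosen after seeing the data. No paired analysis was possible because the columns are group means that carry no replicate number, and leaving out a library could not be done for the same reason. The counts of called members and of members with a peak kept within 1.5 times under every alternative run. The gap to all genes was less stable for a peak in or near the gene. Within 1 kb of either side 71 of 88 members had one, against 54.7% of all genes. By the planned definition 77 of 88 did, against 70.5%. Within 50 kb of either side 85 of 88 did, against 90.4%, the narrowest gap of these.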
